A study of Mus musculus with 17 samples.

Results

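Epidermal keratinocytes are the cells of the skin surface, and their transcripts were followed here in whole MCA205 tumours, a transplantable mouse fibrosarcoma. The set holds 40 genes of skin epithelium: basal, suprabasal and stress-induced keratins, proteins of the cornified envelope, adhesion proteins and transcription factors. Members were the probes whose annotated symbol is one of the 40, without regard to their signal. Of 45281 probes, 54 were annotated to 37 of the 40 listed symbols, and Dsp, Perp2 and Col17a2 had no annotated probe. The symbols Perp2 and Col17a2 were also absent from the RefSeq gene table used for names. Perp and Col17a1 were placed in the list of other epidermal genes below. A gene counted as measured if 2 or more arrays detected one of its probes (detection p-value below 0.01), and 23 of the 40 genes passed, of 12451 genes tested in all. The 12451 include probes without a single symbol, each tested under its own ID. Shares of all genes below are shares of these 12451.

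All mice were wild-type C57bl/6 carrying MCA205 tumours, which were injected with doxorubicin (DX, an anthracycline that damages DNA) or with phosphate-buffered saline (PBS) into the tumour. The 6 groups were DX tumours of day 2 (n = 2), PBS tumours of day 2 (n = 3), DX responders of day 7 (n = 3), DX non-responders of day 7 (n = 3), PBS tumours of day 7 (n = 3) and DX responders of day 10 (n = 3). Responders and non-responders of day 7 were told apart by the submitters from the shrinkage of the tumour. No age of the mice is given in the sources used here, PBS tumours of day 10 were not analysed here, and the labels do not say whether replicates came from separate mice, so p-values measure the spread between these samples. RNA came from the bulk tumour, so fewer keratinocytes and less RNA per keratinocyte cannot be told apart.

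Skin epidermis renews from a basal layer, whose cells hold the keratins Krt5 and Krt14. Cells that leave this layer change to Krt1 and Krt10, and then lay down a cornified envelope of cross-linked proteins such as loricrin and involucrin. Krt6, Krt16 and Krt17 are low in resting skin between the hair follicles and are induced when skin is wounded. Fibrosarcoma cells are mesenchymal, and all 9 fibroblast and stroma genes examined, among them the collagen gene Col1a1 and vimentin (Vim), were detected on all 17 arrays.

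The arrays differed little in range, with 13728 to 15568 detected probes and a median signal of 105.8 to 135.5. They lay on 3 BeadChips, numbered 1 to 3 here. Day 7 responder 3, day 7 non-responder 2 and day 10 responder 3 lay on BeadChip 1, and day 10 responder 2 and day 2 PBS 3 on BeadChip 3.

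Epidermal transcripts were unevenly spread over the tumours of the day 2 PBS, day 7 responder, day 7 non-responder and day 10 groups. Their summed linear signal was at most 1336 in day 2 DX and 1299 in day 7 PBS tumours. Day 2 DX 1, with 1336 and 8 genes detected, lay above day 7 responder 1, with 1237 and 6. These sums include Krt10, detected on every array, and signals of undetected genes. Without Krt10 the sums of these arrays were 817 and 691. Day 7 responder 3 gave a detected signal for all 23 measured genes, day 10 responders 3, 2 and 1 for 17, 16 and 10, day 7 non-responder 2 for 15 and day 2 PBS 3 for 14. The remaining 11 arrays had between 2 and 8. For 19 of the 23 genes the brightest array was day 7 responder 3, against 5.75% of all genes. The exceptions were Sprr1a, brightest on day 10 responder 2, Ly6d on day 10 responder 3, Sbsn on day 7 responder 1 and Pkp3 on day 7 PBS 1. They hold for the probe used per gene. Other probes of Sbsn (5.38, also kept) and Ly6d (5.78, not kept) were brightest on day 7 responder 3. A further Sbsn probe, not kept, was brightest on day 7 non-responder 2 (5.45). Members had to be detected on only 2 arrays to be measured, so a count over the measured genes is a description of these arrays. Medians over the measured genes, given below, include genes not detected in either group compared.

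**Figure D1:**
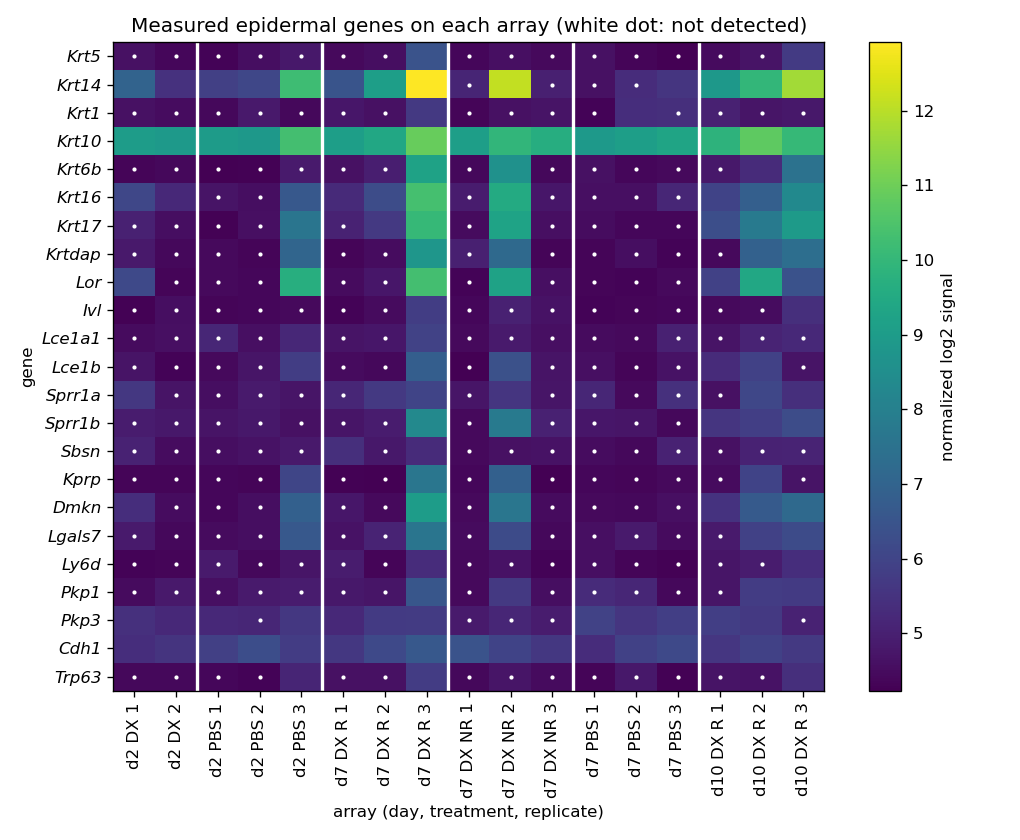
Normalized log2 signal of the 23 measured epidermal genes (rows) on the 17 arrays (columns, by group). Day 7 responder 3 is the brightest array for 19 of the genes, and the day 7 PBS tumours are dim for nearly all rows. Krt10 and the Cdh1 probe shown are detected on every array.

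The same arrays stood high for gene after gene. Among the 5 highest arrays were day 7 responder 3 for 23 members (29.2% of all genes), day 10 responder 3 for 18 (31.6%), day 10 responder 2 for 18 (29%), day 7 non-responder 2 for 16 (33%) and day 2 PBS 3 for 13 (27.9%). No other array was among the 5 highest for more than 4 members. These 5 arrays were the 5 highest for 9 genes, namely Krt14, Krt10, Krt16, Krt17, Krtdap, Lor, Kprp, Dmkn and Lgals7. Within groups, the members' standard deviation of log2 signal had a median of 0.63, against 0.24 over all genes, and 15 of 23 members lay above the 95th percentile of all genes (0.45).

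The basal keratin Krt14, which pairs with Krt5 in the filaments of dividing keratinocytes, had the widest spread within groups of all members, with a standard deviation of 2.56. Its log2 signal was 7.00 and 5.48 in day 2 DX tumours, against 5.87, 6.09 and 10.22 in day 2 PBS tumours. On day 7 it was 6.48, 9.08 and 12.92 in responders, 5.13, 12.11 and 5.01 in non-responders, and 4.63, 5.32 and 5.58 in PBS tumours. In day 10 responders it was 8.87, 9.99 and 11.72. Thus 1 non-responder lay within the responders' range, the other 2 lay in the range of the day 7 PBS tumours, and the day 10 tumours were all above every PBS tumour of day 7. Krt5 was near the detection limit, with its highest signals of 6.45 on day 7 responder 3 and 5.71 on day 10 responder 3. It was detected on only 2 arrays, and its log2 signal stayed between 4.26 and 4.80 on the other 15.

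Krt10, a keratin of cells that have left the basal layer, was detected on all 17 arrays. Its log2 signal was 9.02 and 8.92 in day 2 DX tumours, against 9.00, 8.87 and 10.31 in day 2 PBS tumours. Day 7 responders gave 9.09, 9.45 and 10.89, non-responders 9.11, 9.94 and 9.63, PBS tumours of day 7 8.89, 9.08 and 9.31, and day 10 responders 9.84, 10.76 and 10.04. All 3 day 10 values exceeded those of the day 7 PBS tumours, and both day 2 DX values lay below every day 7 DX value. Krt1, the usual partner of Krt10, was detected on 2 arrays only and ranged from 4.33 to 5.66.

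The stress-induced keratins also differed widely between tumours of a group. Krt17, a keratin of hair follicles and wounded skin, was 5.02 and 4.56 in day 2 DX tumours, against 4.29, 4.59 and 7.61 in day 2 PBS tumours. On day 7 it was 5.05, 5.67 and 10.06 in responders, 4.49, 9.27 and 4.60 in non-responders and 4.53, 4.38 and 4.38 in PBS tumours, and on day 10 it was 6.31, 7.81 and 8.97. Day 7 PBS tumours gave no detected Krt17 signal, and all 3 day 10 tumours did. Krt16, its relative in wounded epidermis, was 5.26, 6.25 and 10.37 in day 7 responders, 4.89, 9.53 and 4.75 in non-responders and 4.60, 4.58 and 5.18 in day 7 PBS tumours. It was 5.99, 6.86 and 8.35 in day 10 responders, and 6.08 and 5.24 in day 2 DX tumours, against 4.70, 4.55 and 6.61 in day 2 PBS tumours. Krt6b was detected on 4 arrays, with 9.24 on day 7 responder 3, 8.63 on day 7 non-responder 2, and 7.52 and 5.32 on day 10 responders 3 and 2, while day 2 PBS 3 stayed at 4.87. A second Krt6b probe was also brightest on day 7 responder 3, at 7.68. Keratins are a family of similar sequences, and cross-hybridisation between them was not tested.

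Lor encodes loricrin, a main protein of the cornified envelope, and 10 of the 13 envelope genes listed were measured. Lor was 6.15 and 4.34 in day 2 DX tumours, against 4.44, 4.38 and 9.68 in day 2 PBS tumours. On day 7 it was 4.50, 4.75 and 10.31 in responders, 4.32, 9.22 and 4.60 in non-responders and 4.36, 4.32 and 4.45 in PBS tumours, and on day 10 it was 5.91, 9.44 and 6.42. Lor was detected on 1 array in each of the day 2 DX, day 2 PBS, day 7 responder and day 7 non-responder groups. It was detected on none of the day 7 PBS tumours and on all 3 of day 10. Dmkn (dermokine, secreted by suprabasal cells) reached 9.04 on day 7 responder 3, 7.63 on day 7 non-responder 2, 7.18 and 6.68 on day 10 responders 3 and 2 and 6.88 on day 2 PBS 3, and was at most 5.50 on the other arrays. Krtdap, a differentiation-associated secreted protein, was at 8.80, 7.21, 7.36, 6.92 and 7.07 on those 5 arrays in the same order, and at most 5.01 elsewhere. A second Dmkn probe was brightest on the same array, at 8.58, whereas a further one was detected on 2 arrays and reached only 5.59, on day 7 PBS 1.

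**Figure D2:**
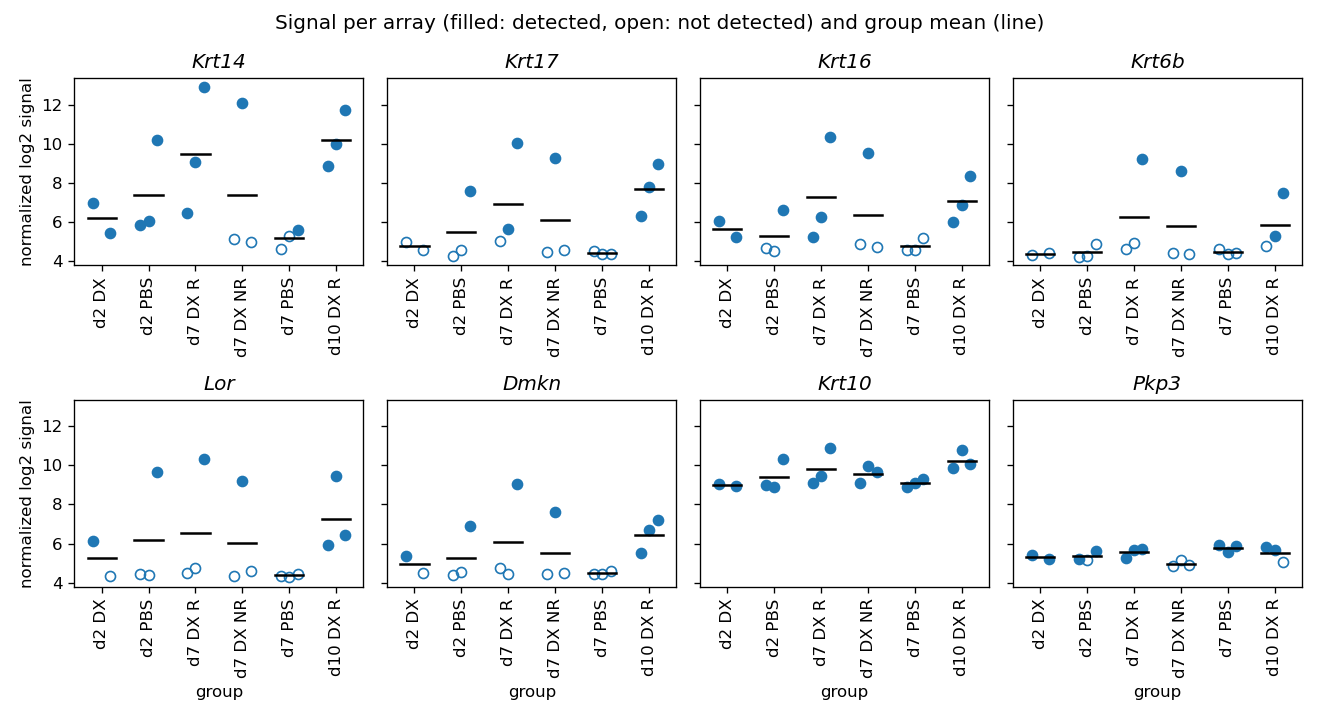
Normalized log2 signal (vertical axis) of 8 epidermal genes on each array, by group; filled points are detected, open points are not, and lines are group means. In day 7 responders and non-responders, 1 array of 3 carries most of the Lor and Krt6b signal, while Krt10 is detected on all 17 arrays.

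Sprr1b, a small proline-rich envelope protein, was 8.31 on day 7 responder 3, 7.82 on day 7 non-responder 2 and 6.24 and 5.84 on day 10 responders 3 and 2, but 4.61 on day 2 PBS 3, unlike Lor. The promoters of Lor, Krtdap, Sprr1b and Dmkn are shown because these genes lie in clusters of envelope genes on chromosomes 3 and 7 and were bright on several of the same arrays. The RefSeq promoter table (assembly GRCm38.p6, 250 bases before to 50 after the start) held 22 of the 40 members. For Dmkn it held several promoters, and the first is shown. Capitals mark TGANTCA (N is any base), a loose pattern for sites of AP-1 factors, and TATAAA, the TATA box, in sequences written 5′ to 3′.
Lor, chr3:92083093-92083392, minus strand: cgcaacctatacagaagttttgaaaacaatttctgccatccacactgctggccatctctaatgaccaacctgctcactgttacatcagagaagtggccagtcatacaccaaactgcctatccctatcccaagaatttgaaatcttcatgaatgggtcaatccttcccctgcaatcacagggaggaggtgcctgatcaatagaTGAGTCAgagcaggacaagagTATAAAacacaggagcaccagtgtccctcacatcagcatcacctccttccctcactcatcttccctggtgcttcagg
Krtdap, chr7:30787655-30787954, plus strand: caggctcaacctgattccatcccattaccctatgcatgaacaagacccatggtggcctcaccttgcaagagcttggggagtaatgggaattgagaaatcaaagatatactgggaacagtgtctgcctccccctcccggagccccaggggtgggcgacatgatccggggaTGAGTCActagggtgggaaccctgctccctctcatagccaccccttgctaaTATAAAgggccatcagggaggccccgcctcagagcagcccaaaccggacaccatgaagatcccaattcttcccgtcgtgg
Sprr1b, chr3:92438730-92439029, minus strand: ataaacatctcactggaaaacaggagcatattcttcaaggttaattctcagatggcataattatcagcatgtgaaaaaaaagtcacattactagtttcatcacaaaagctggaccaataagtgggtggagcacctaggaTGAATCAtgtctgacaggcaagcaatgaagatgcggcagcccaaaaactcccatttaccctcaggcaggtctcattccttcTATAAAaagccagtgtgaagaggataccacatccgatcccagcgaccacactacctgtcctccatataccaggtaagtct
Dmkn, chr7:30763506-30763805, plus strand: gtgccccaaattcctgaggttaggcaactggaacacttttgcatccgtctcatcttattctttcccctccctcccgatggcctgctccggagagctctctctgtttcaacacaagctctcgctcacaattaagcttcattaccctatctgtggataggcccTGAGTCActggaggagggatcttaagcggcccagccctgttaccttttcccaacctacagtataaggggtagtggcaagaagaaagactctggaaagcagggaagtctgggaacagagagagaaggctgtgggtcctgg
In this search of both strands, TGANTCA was found in 8 of the 22 members, Krtdap, Lor, Flg2, Ivl, Sprr1a, Sprr1b, Sbsn and Dmkn, and in 8.97% of all genes in the table (7.81% of its 32851 promoters). In Lor it lay 48 bases before the start, with TATAAA at 27 bases. The only match in Sprr1b and in Flg2 was TGAATCA, with A as the middle base. TATAAA was found in 7 of the 22 members, against 15.67% of all genes. GGGCGG, a GC box, was found in 5 members (38.2% of genes), and CCAAT in 8 (41.06% of genes). These are matches of letters only.

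Among the other keratinocyte proteins, Lgals7 (galectin-7, a lectin of stratified epithelium) was 7.61 on day 7 responder 3, 6.20 on day 7 non-responder 2 and on day 10 responder 3, 5.91 on day 10 responder 2, 6.64 on day 2 PBS 3 and at most 5.08 on the rest. Its other kept probes reached only 5.50 and 5.48. Ly6d, a surface protein, was detected on 2 arrays by the probe used, with a highest value of 5.37 on day 10 responder 3. Its other probe, detected on 1 array and not kept, reached 5.78 on day 7 responder 3.

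Of the 9 adhesion symbols listed, 6 had a probe and 3 were measured. Cdh1 (E-cadherin, the cell contact protein of epithelia) was detected on all 17 arrays by the probe used and ranged only from 5.35 to 6.61. A second Cdh1 probe was not detected on any array, with signals of 4.28 to 4.89. Pkp3, a desmosome protein, was 5.24, 5.69 and 5.74 in day 7 responders, 4.85, 5.15 and 4.90 in non-responders and 5.94, 5.58 and 5.85 in day 7 PBS tumours. It was not detected on any of the 3 non-responder arrays, including replicate 2, on which 15 epidermal genes were detected. That array's lowest detected signal was 5.17, close to its Pkp3 value of 5.15. Pkp3 was also not detected on day 10 responder 3 (5.07), on which 17 epidermal genes were detected, or on day 2 PBS 2 (5.15). Pkp1, also of desmosomes, was highest at 6.55 on day 7 responder 3. Trp63, the transcription factor that maintains basal keratinocytes, was detected on 3 arrays, with 5.76 on day 7 responder 3 and 5.39 on day 10 responder 3.

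The 14 members with a probe that were not measured included 11 not detected on any array, namely the keratins Krt77 and Krt6a, the filaggrin relative Flg2, the cross-linking transglutaminases Tgm1 and Tgm3, the calmodulin-like Calml3, the desmosomal cadherins Dsg1a and Dsc3, the adhesion molecule Epcam, and the transcription factors Grhl3 and Ovol1. Krt15, Krt79 and Sfn were each detected on 1 array. The remaining measured envelope genes were Ivl (involucrin), Lce1a1, Lce1b, Sprr1a, Sbsn (suprabasin) and Kprp, and they lay between 4.23 and 7.64, the highest being Kprp on day 7 responder 3.

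The balance between genes differed among the bright tumours. Of the 23 genes, 15 were higher on day 10 responder 3 than on day 10 responder 2, with 5 over 1 and 3 under -1 on the log2 scale and a median of 0.30, against 2.78% of all genes over 1. Replicate 3 exceeded replicate 2 by 2.21 in Krt6b, 1.73 in Krt14, 1.49 in Krt16 and 1.16 in Krt17, while its difference was -3.01 in Lor. Kprp and Lce1b were detected on replicate 2 and not on replicate 3, and Krt5 on replicate 3 and not on replicate 2. These genes were singled out after their values were seen. Lor was likewise detected on day 2 PBS 3, where Krt6b was not, while both were detected on day 7 non-responder 2. A difference between single arrays has no replicate check.

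**Figure D3:**
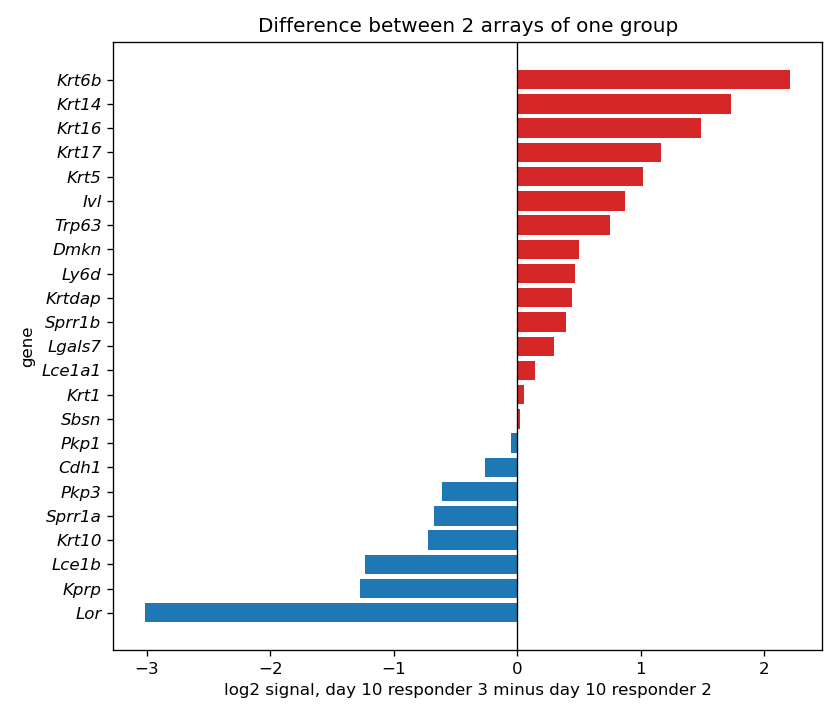
Difference in log2 signal between day 10 responder 3 and day 10 responder 2 for the 23 measured genes. Bars to the right are higher on replicate 3; Krt6b, Krt14, Krt16, Krt17 and Krt5 exceed 1, and Lor, Kprp and Lce1b are below -1, the last 2 of these undetected on replicate 3 and Krt5 undetected on replicate 2.

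Other genes of the epidermis, from a list of 63 that held none of the 40, were in part bright on the same arrays. Of these, 23 were measured and 20 were not detected on any array. Day 7 responder 3 was the brightest array for 14, and it was among the 5 highest for 19, day 7 non-responder 2 for 16, day 10 responders 2 and 3 for 15 each and day 2 PBS 3 for 13. Shares of all genes for these ranks are those given above. Klf5, Itgb4 and Spint1, the 3 with the highest mean signal, were detected on all 17 arrays. Spint1, a protease inhibitor of epithelia, was lowest on day 10 responder 2 (8.06) and day 7 responder 3 (8.08), and Itga6, an integrin of the basal layer, on day 10 responder 3 (4.75). Rptn (repetin, a cornified envelope protein), singled out after its values were seen, was 8.62 on day 7 responder 3, 7.87 on day 7 non-responder 2 and 6.14 on day 10 responder 3, but 4.72 on day 10 responder 2 and 4.55 on day 2 PBS 3. None of the 23 was called in any comparison.

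Markers of other tissue were set beside these values. The summed linear signal of the 15 measured skeletal muscle genes was 72973 on day 7 responder 3 and 59412 on day 10 responder 3, but 601 on day 7 non-responder 2, 1077 on day 10 responder 2 and 1215 on day 2 PBS 3. The summed signal of the 23 epidermal genes on those arrays was 16385, 6491, 8987, 4717 and 4464, and 1057 to 2156 on the other 12. Without Krt10, which every array detected, these sums were 14494, 5439, 8002, 2983 and 3196, and 564 to 1246 on the other 12. Signals of undetected genes are part of all these sums. By group, the muscle sum ranged over 1594 to 2963 in day 2 DX tumours, 388 to 3695 in day 2 PBS tumours, 1061 to 72973 in day 7 responders, 419 to 601 in non-responders, 419 to 535 in day 7 PBS tumours and 1077 to 59412 in day 10 responders. Of the 17 muscle genes with a probe, 2 were not detected on any array. All 6 sebaceous gland genes, 7 of 8 melanocyte genes and the Langerhans cell gene Cd207 were not detected on any array. Of 16 hair follicle genes with a probe, 10 were not detected on any array and 2 were measured. These were Krt27, highest at 6.95 on day 10 responder 2, and Sox9, at 11.50 to 12.82 on all arrays. Sox9 was 12.55 on day 7 non-responder 3, where 2 epidermal genes were detected, and 12.18 on day 7 responder 3, where all 23 were. Among 7 adipocyte genes, 1 was measured, Adipoq, highest at 6.75 on day 10 responder 1, and 3 of 7 genes of simple epithelium were measured, with sums of 73 to 118. The part of these tissues in the epidermal signal was not tested.

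**Figure D4:**
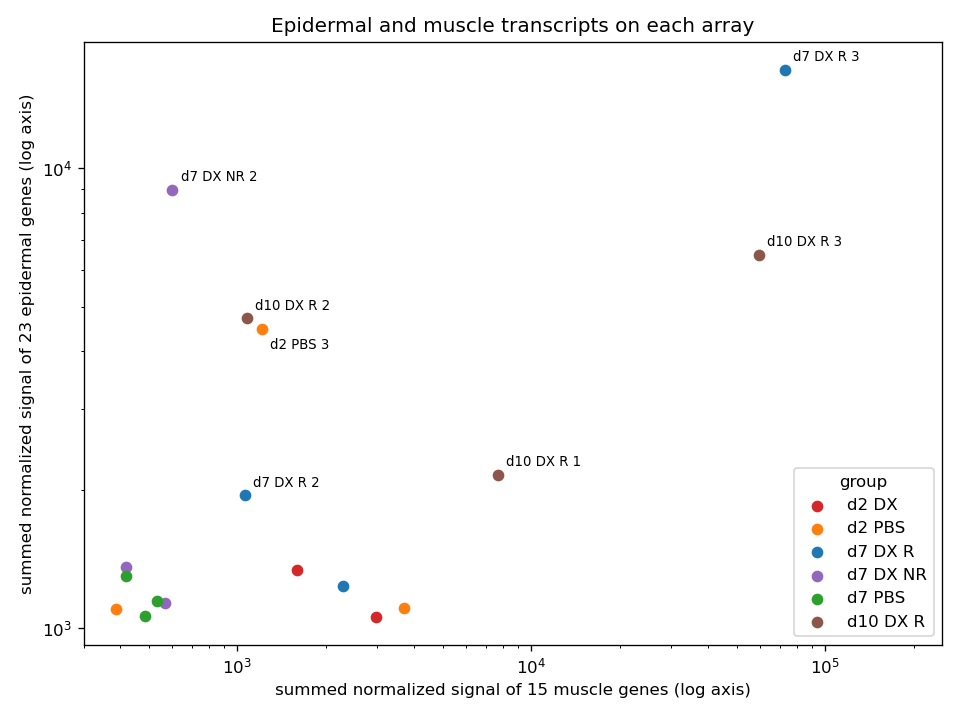
Summed normalized signal of the 23 epidermal genes (vertical, log axis) against that of 15 skeletal muscle genes (horizontal, log axis), 1 point per array. The epidermal sum includes Krt10 and signals of undetected genes. Day 7 responder 3 and day 10 responder 3 are high in both, whereas day 7 non-responder 2, day 10 responder 2 and day 2 PBS 3 are high in epidermal signal with muscle sums of 601, 1077 and 1215.

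No member passed the test between groups in any of the 7 comparisons, by limma's moderated test on all 17 arrays with Benjamini-Hochberg adjustment over all 12451 genes and a threshold of 0.05. For DX against PBS on day 2, 0 of 23 members were called, against 0.61% of all genes, and 0 had an unadjusted p under 0.05 (6.91% of genes). Krt14 differed by -1.16 ± 1.83 (SE; adjusted p = 0.999 by limma), averaging 6.24 ± 1.07 (SD, n = 2) in DX and 7.39 ± 2.45 (SD, n = 3) in PBS tumours. The median difference over the members was -0.34 (all genes -0.02), and -0.32 within BeadChip 3, the only one with both groups. With the BeadChip as a term in the fit it was -0.59. In the fit without that term, 6 differences were positive (45.9% of genes). Without day 2 PBS 3 the median was 0.12. Krt14 differed by 0.26 without it, and Lor was then not detected on any day 2 PBS array. One member, Sprr1b, was higher without overlap (12.2% of genes) and 2, Cdh1 and Ly6d, were lower (15.9%), but Sprr1b and Ly6d were not detected on any of the 5 day 2 arrays.

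Responders were compared with PBS tumours on day 7. None of 23 members was called (0.53% of all genes), and 2, Krt14 and Krt16, had an unadjusted p under 0.05 (13.8% of genes). Krt14 was higher by 4.31 ± 1.64 on the log2 scale (SE; adjusted p = 0.253 by limma), averaging 9.49 ± 3.24 in responders and 5.18 ± 0.49 in PBS tumours (SD, n = 3 each). Krt16 was at least 3.81-fold and Krt17 at least 2.95-fold higher as bounds against undetected PBS signals, with adjusted p of 0.349 and 0.379 by limma. These bounds set the responders' mean against the mean, per PBS array, of the higher of the lowest detected signal and the probe's own signal. There were 5 members higher in responders with no overlap between the groups (Krt14, Krt6b, Krt16, Krt17 and Lor), against 11.2% of genes, and none lower (7.98%). In all, 21 differences were positive (51.7% of genes). Krt6b and Lor were detected on 1 responder array and no PBS array, so the order of their other values is one of undetected signals, for Krt6b 4.62 on day 7 responder 1 against 4.61 on day 7 PBS 1. The members' median difference was 0.72 (all genes 0.01), but 0.13 without day 7 responder 3, 0.14 within BeadChip 3 and 0.23 with a BeadChip term. BeadChip 3 held only day 7 responder 1 and day 7 PBS 1 of these groups, so 0.14 compares 1 array with 1 array. Without day 7 responder 3 Krt14 differed by 2.60, and no remaining array of the 2 groups detected Lor or Krt6b. With the BeadChip term Krt14 differed by 1.10.

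For non-responders against PBS on day 7, none was called (0.129% of genes), with 1 member under an unadjusted p of 0.05, Pkp3 (10.8% of genes). Pkp3 was lower, by -0.83 ± 0.23 on the log2 scale (SE; adjusted p = 0.205 by limma), with 4.97 ± 0.16 in non-responders and 5.79 ± 0.19 in PBS tumours (SD, n = 3 each). It was at least 1.43-fold higher in PBS, and its difference was -0.84 within BeadChip 2. Pkp3 was the 1 member lower without overlap (6.28% of genes), and Ivl, which none of these 6 arrays detected, the 1 higher (8.45%). Krt14 differed by 2.24 ± 1.64 (SE; adjusted p = 0.664), and by -0.11 without day 7 non-responder 2, the only non-responder array that detected it. The members' median was 0.39 (all genes 0.02), with 17 differences positive (52.6% of genes). It was -0.04 without that array, -0.04 within BeadChip 2 and 0.21 with the BeadChip term.

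Responders and non-responders were set against each other on day 7. None was called (0% of genes by limma), and 2 members had an unadjusted p under 0.05, Sbsn and Pkp3 (5.71% of genes), both higher without overlap in responders (5.51%), with none lower (5.42%). Pkp3 differed by 0.59 ± 0.23 (SE; adjusted p = 0.799), and neither Pkp3 nor the Sbsn probe used (adjusted p = 0.804) was detected on any non-responder array. A second kept Sbsn probe read 5.24 on day 7 non-responder 2, above that array's lowest detected signal of 5.17. On day 7 responder 2 that probe read 4.36, so its groups overlapped. All 23 differences were positive (49.5% of genes). Their median was 0.47, against 0.00 over all genes, and it was -0.16 without day 7 responder 3, 0.87 without day 7 non-responder 2, 0.13 within BeadChip 1 and 0.02 with the BeadChip term. Krt14 differed by 2.08 (interval -1.36 to 5.52, 95%).

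For day 10 against day 7 in responders, 0 of 23 members were called by limma (0.00803% of genes), and 0 had an unadjusted p under 0.05 (3.92%). Krt14 averaged 10.19 ± 1.44 on day 10 and 9.49 ± 3.24 on day 7 (SD, n = 3 each), a difference of 0.70 (interval -2.74 to 4.14, 95%). There were 9 positive differences (47.1% of genes). The median over members was -0.09 (all genes -0.01), also with the BeadChip term, 0.79 without day 7 responder 3, -0.35 without day 7 responder 1, -0.43 within BeadChip 1 and 0.97 within BeadChip 3. No member was free of overlap (2.79% of genes higher, 4.44% lower).

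In PBS tumours, day 7 against day 2 called none of 23 members (0.634% of genes), and 0 had an unadjusted p under 0.05 (14.5%). Krt14 was 5.18 ± 0.49 on day 7 and 7.39 ± 2.45 on day 2 (SD, n = 3 each; adjusted p = 0.575 by limma) and was the 1 member lower without overlap (12.1% of genes). The median was -0.26 (all genes -0.02), 0.01 without day 2 PBS 3, 0.11 and -0.40 within BeadChips 2 and 3, and -0.20 with the BeadChip term. There were 5 positive differences (47.5% of genes), and no member was higher without overlap (10.5%).

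The DX effect in responders on day 7 was also set against the DX effect on day 2, as an interaction. None of 23 members was called (0.0964% of genes), and 3, Krt14, Ly6d and Cdh1, had an unadjusted p under 0.05 (7.98%). Krt14 gave the widest difference of effects, 5.47 ± 2.45 (SE; adjusted p = 0.585 by limma). The median over members was 1.14, against 0.03 over all genes, with 21 positive (53.3% of genes). It was 0.44 without day 7 responder 3, 0.76 within BeadChip 3 and 0.92 with the BeadChip term. On BeadChip 3 only the day 2 PBS group had more than a single array. Comparisons that use the same PBS or responder arrays are not independent of each other.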

How the data were processed

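Total RNA of 17 bulk tumours was hybridised to Illumina mouse BeadChips, 1 array per sample. The authors deposited, per the file headers, a signal intensity and a detection p-value per probe and array, before normalization. Per the submitters' processing notes GenomeStudio 2011.1 was used, and its settings and the rule behind the p-value are not given in the sources used here. A second deposited table of intensity values, processed by steps not given there, served as an alternative; its column medians were 119.6 to 119.7, and each of its 17 columns was most like its own array. That table is on a linear scale, and its background step is unknown.

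Signals were normalized with neqc of limma 3.58.1 (R 4.3.3; offset 16, which pulls differences of dim probes towards 0; quantile step; log2). Of 45281 probes, 34885 had 1 symbol, 18 several and 10378 none, and 34807 symbols matched a RefSeq gene table (GRCm38.p6) used for names. Kept probes (17674) had a detection p under 0.01 on at least 2 arrays, with the brightest kept probe per gene. Probes without a single symbol stayed under their own ID and count among the genes. One limma fit with a mean-variance trend covered 6 group means (11 residual and 6.98 prior degrees of freedom) and 12451 genes. The fit was tested on simulated data. Members and lists were chosen with earlier results of these data known. Per-array values are given for up to 3 members per class with the highest mean signal, and other lists name at most 3 genes; others named were chosen after their values were seen. The number of arrays limits the precision. Alternatives were the background step, scaling, filter, probes per gene, the authors' values, the BeadChip, the replicate number and left-out arrays.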

Additional observations from a re-analysis of the deposited data

Results flagged for a closer look

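In day 7 non-responders every array lay above the mean of the day 7 PBS tumours, and in day 2 DX tumours every array lay below the mean of the day 2 PBS tumours, for 2 members. The share of all genes with this pattern was not counted, so it describes these 2 genes and is no result about the set. Krt10 differed by 0.47 in day 7 non-responders and by -0.42 in day 2 DX tumours, so that the effects lay 0.89 apart on the log2 scale. Without day 2 PBS 3 the day 2 difference of Krt10 was 0.033. The fitted Krt17 values differed by 1.69 and by -0.71 in the same groups, 2.39 apart, but Krt17 was detected on 1 of 3 non-responder arrays, 0 of 3 day 7 PBS arrays, 0 of 2 day 2 DX arrays and 1 of 3 day 2 PBS arrays, so only bounds apply, at least 1.69-fold higher in non-responders and at least 1.27-fold higher in day 2 PBS tumours. Without day 7 non-responder 2 the Krt17 difference was 0.11, and without day 2 PBS 3 it was 0.35 on day 2. The difference was not tested. Groups of 2 or 3 arrays were too small for a test of single outlying arrays.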

How the results depend on the processing

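All 106 recomputed counts of called members were 0 under every alternative run, and the smallest adjusted p of a named single gene was 0.139, for Krt14 in responders against PBS on day 7 without day 7 responder 1. With detection required on at least 6 arrays, 9 members remained, the median difference was 1.60 for responders against PBS on day 7 and 1.94 for the difference of DX effects, and day 7 responder 3 was the brightest array for 7 of 9 members. Within BeadChip 3, the median for day 10 against day 7 responders was 0.97, from 1 array of each group. With the BeadChip as a block, Krt14 differed by -0.14 between responders and non-responders. Leaving out 1 array at a time, the medians ranged from -0.37 to 0.12 for DX against PBS on day 2, 0.13 to 1.07 for responders and -0.04 to 0.66 for non-responders against PBS on day 7, -0.16 to 0.87 for responders against non-responders, -0.35 to 0.79 for day 10 against day 7, -0.38 to 0.01 for PBS tumours and 0.44 to 1.50 for the difference of DX effects. In the same way, Krt14 ranged from -1.92 to 0.26, Lor from -1.83 to 0.84, Krt10 from -0.69 to 0.033 and Krt17 from -1.31 to 0.35 on day 2, Krt14 from -0.11 to 3.44 for non-responders, and Krt14 from -0.81 to 2.41 and Krt17 from -0.17 to 2.34 for day 10 against day 7. Fitted values of genes undetected in a group are no fold changes. The cause was not tested, beyond the arrays named above. Of 40 same-numbered pairs of arrays, 8 had deviations correlated over 0.1 (-0.22 to 0.54), the highest being day 7 responder 3 with day 10 responder 3. Differently numbered pairs were not compared, so whether replicate numbers pair the samples could not be decided. With the replicate block, 0 members were called in each comparison and the median was -0.05 on day 2. Signals near background bound the dim members: 14 with a probe were not measured.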
